A study of Mus musculus with 6 samples.

Results

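Cytosolic ribosomal protein genes were examined in Kupffer cells, the macrophages that live in the sinusoids of the liver. Members were the protein-coding genes whose names begin with Rpl or Rps and a digit, together with the stalk genes Rplp0 to Rplp2 and Rpsa. Of 104 such names, 10 S6 kinase genes (Rps6k) and 8 genes carrying a pseudogene name (-ps, alone or with a number) were left out, which gave 86 of the 54532 genes in the table. By name alone, 33 of these were assigned to the small subunit, 49 to the large subunit and 3 to the stalk. The remaining 1 (Rps19bp1) encodes a protein that binds Rps19 and is not part of the ribosome.

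Bulk RNA sequencing covered 3 libraries of Trem2-deficient (Trem2_KO) and 3 of littermate wild-type (WT) male mice. All animals were 8 weeks of age when a high fat diet began, and it lasted 8 weeks in both groups. No other diet was analysed here. The Kupffer cells were sorted from liver; neither the sorting gate nor the strain is stated in the labels. Whether each library comes from its own mouse is not stated either, so the p-values refer to the spread among libraries, which may be technical.

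The cytosolic ribosome translates nuclear-encoded mRNA: its small subunit reads codons and its large subunit joins amino acids. Its proteins are needed in near-equal amounts, and most of their mRNAs are short, abundant and begin with a run of pyrimidines, the TOP motif (terminal oligopyrimidine). Through that motif the kinase complex mTORC1 and the binding protein Larp1 adjust the translation of these mRNAs. Trem2 is a surface receptor of macrophages that binds lipids.

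Many members were slightly lower in Trem2_KO as counted, and this direction turned when a relation to mRNA length seen across protein-coding genes was removed. In counts tested with edgeR's quasi-likelihood test, 31 of 84 tested members (36.9%) were lower and 1 (1.19%) was higher in Trem2_KO at an adjusted p under 0.05. Over all 13776 tested genes, 15.1% were called lower and 15.3% higher. The median log2 change of the 84 members was -0.088, against -0.0051 over all tested genes, and 69 members lay below 0. The 31 falls were small, with log2 changes from -0.25 to -0.084, and each was less than a fold of 1.2. With the relation to mRNA length removed from each library, an alternative chosen after seeing the data, 4 members (4.76%) were lower and 27 (32.1%) higher, beside 12.4% and 13.4% of all tested genes, and the members' median turned to 0.044. All tested genes include some without an mRNA length, which were left uncorrected. Of 11972 protein-coding genes with one, 1594 were lower and 1682 higher.

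Total counts ran from 15799351 to 17135603 per library. Trem2 itself had 16.6, 17.4 and 14.5 CPM (counts scaled to library size) in the Trem2_KO libraries, against 84.8, 90.1 and 84.3 CPM in the WT libraries (log2 change -2.42, SE 0.06, edgeR adjusted p = 1.68e-35). Kupffer cell markers were lower in Trem2_KO in 6 of 8 cases, with a summed level of 37629 to 38242 CPM in Trem2_KO and 41685 to 43000.3 CPM in WT. Sinusoidal endothelial markers were higher in 7 of 10 and lower in 1, with a summed 1919.7 to 1936 CPM in Trem2_KO and 1966 to 1986 CPM in WT. The sum mainly follows Cdh5, the 1 called lower, with means of 1129 CPM in Trem2_KO and 1257 CPM in WT. Cdh5 is far above the list's median level of 30.4 CPM, so the sum does not give the direction of the other markers, such as the 7 called higher. Which cells the Cdh5 reads come from was not tested. Of those 7, Ptprb averaged 40.2 CPM in Trem2_KO and 25.3 CPM in WT. Hepatocyte markers were lower in 5 of 8 (62.5%) and higher in 1 (12.5%), with sums of 1168 to 1217 CPM in Trem2_KO and 1361 to 1429 CPM in WT. B cell, T and NK cell, neutrophil and stellate markers summed to at most 28.2, 1.35, 192 and 16.4 CPM in Trem2_KO, and to at most 37.4, 1.34, 209 and 17.3 CPM in WT. Of those tested, 2 of 5 B cell, 1 of 4 neutrophil and 0 of 4 stellate markers were called lower, and 0 were called higher. The T and NK cell markers were too low to be tested. No marker in these lists was at 0 in every library. The part of these other cells in the values of the ribosomal protein genes was not tested, and in bulk RNA fewer cells of a type and less RNA per cell cannot be told apart.

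Taken as a whole, the members held 1.97%, 1.97% and 1.90% of all counts in the Trem2_KO libraries, against 2.03%, 2.10% and 1.99% in the WT libraries. The means were 1.94% ± 0.04 in Trem2_KO and 2.04% ± 0.06 in WT (SD, n = 3 each), and the groups did not overlap. The same libraries read per length gave another order. Of the summed FPKM (fragments scaled to gene length and library size), the members held 4.01%, 4.05% and 3.83% in Trem2_KO, against 3.90%, 4.04% and 3.90% in WT, and there the groups overlapped. The difference was -0.095 percentage points on counts and 0.012 points on FPKM.

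Among the 3 stalk proteins, which recruit elongation factors to the large subunit, Rplp1 and Rplp2 fell. Rplp1 had the highest level of all members per length, 1073 FPKM in Trem2_KO and 1277 FPKM in WT on average. In each library Rplp1 had 544, 550.0 and 523 CPM in Trem2_KO, against 639, 666 and 616 CPM in WT. All 3 Trem2_KO libraries were below all 3 WT libraries, and the log2 change was -0.25 (SE 0.03, edgeR adjusted p = 5.67e-10). Rplp2, its partner, had 193, 182 and 167 CPM in Trem2_KO, against 201, 217 and 206 CPM in WT, a log2 change of -0.20 (SE 0.04, adjusted p = 0.000379). Rplp0, which anchors both, had 663, 675 and 677 CPM in Trem2_KO and 699.8, 711 and 693 CPM in WT. Its groups did not overlap either, but its log2 change of -0.06 (SE 0.03) did not pass, with an edgeR adjusted p = 0.0701.

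**Figure D1:**
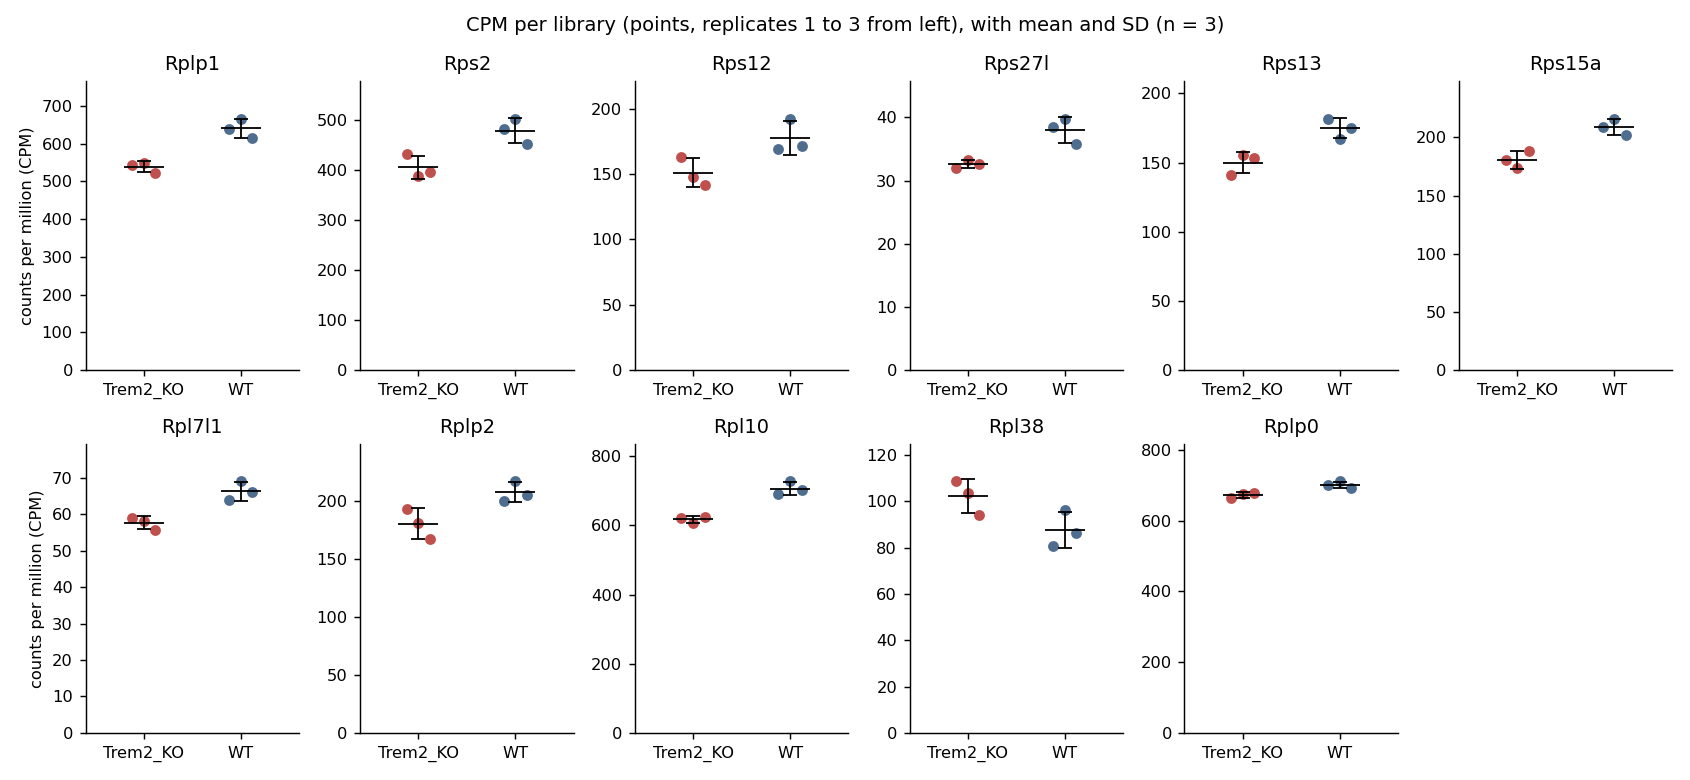
CPM (y axis, from 0) of 11 members in each library, Trem2_KO left of WT, with the mean and SD of 3 libraries as black bars. In the first 9 panels every Trem2_KO point lies below every WT point, Rpl38 has the higher mean in Trem2_KO with overlapping points, and Rplp0 has means of 672 CPM in Trem2_KO and 701 CPM in WT.

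In the small subunit 19 of 33 members (57.6%) fell by edgeR, beside 15.1% of all tested genes. By edgeR, DESeq2 or limma-voom 0 rose, beside 15.3% of all tested genes in edgeR. In edgeR 0 lay above 0 at an unadjusted p under 0.05. The median log2 change of the 33 members was -0.13. With the mRNA length trend removed, 3 were lower and 7 higher (median 0.026), beside 12.4% and 13.4% of all tested genes. Rps2, placed where mRNA enters the ribosome, had 432, 388 and 397 CPM in Trem2_KO, against 483, 503 and 452 CPM in WT (log2 change -0.24, SE 0.04, edgeR adjusted p = 0.000537). Rps12 had 163, 148 and 142 CPM in Trem2_KO, against 169, 192 and 171 CPM in WT (log2 change -0.23, edgeR adjusted p = 0.00712). In both every Trem2_KO library lay below every WT library.

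Rps13, another protein of the small subunit, had 141, 155 and 154 CPM in Trem2_KO, against 182, 167 and 175 CPM in WT. Rps15a had 180.1, 173 and 189 CPM in Trem2_KO, against 209, 216 and 202 CPM in WT. Neither pair of groups overlapped, and the log2 changes were -0.22 for Rps13 and -0.21 for Rps15a (SE 0.04 each, edgeR adjusted p = 8.69e-06 and 4.78e-06). Rps3a1, among the 3 highest members per length with 392 FPKM in Trem2_KO and 434 FPKM in WT, had 384, 384 and 387 CPM in Trem2_KO, against 431, 444 and 402 CPM in WT (log2 change -0.14, adjusted p = 0.000184). Rps6, the substrate of the S6 kinases, had 311, 317 and 328 CPM in Trem2_KO, against 356, 359 and 341 CPM in WT. Its log2 change was also -0.14 (edgeR adjusted p = 0.000253).

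Rpsa, known too as the laminin receptor precursor, had 462, 459 and 480.0 CPM in Trem2_KO, against 513, 526 and 503 CPM in WT (log2 change -0.14, edgeR adjusted p = 0.000117). Rps15 and Rps27a were named members of this subunit that did not pass. Rps15, the second highest member per length, had 265, 258 and 257 CPM in Trem2_KO and 259, 275 and 269.7 CPM in WT, with overlapping groups and an edgeR adjusted p = 0.334. Rps27a, made as a fusion with ubiquitin, had 88.2, 85.3 and 73.4 CPM in Trem2_KO and 82.1, 91.7 and 82.2 CPM in WT (adjusted p = 0.552).

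In the large subunit 10 of 47 tested members fell (21.3%) and 1 rose, beside 15.1% and 15.3% of all tested genes. The median log2 change was -0.07, and the difference from the small subunit was not tested. With the mRNA length trend removed, 1 was lower and 20 higher (median 0.082). Rpl10, which lies close to the tRNA-binding sites and takes part in the last steps of subunit maturation, had 620.0, 607 and 625 CPM in Trem2_KO, against 689, 727 and 703 CPM in WT. The groups were well apart, with a log2 change of -0.19 (SE 0.03, edgeR adjusted p = 6.86e-08). Rpl8 had 393, 401 and 401 CPM in Trem2_KO, against 430.0, 460.2 and 419 CPM in WT (log2 change -0.13, adjusted p = 0.000646). Rpl5, which together with Rpl11 and 5S RNA can bind the p53 regulator Mdm2, had a log2 change of -0.09 (adjusted p = 0.0283), and Rpl11 had -0.08 without passing (adjusted p = 0.156). The call of Rpl5 held in 1 of the 6 fits that left out a library (the 1 without WT replicate 3), and it was not called by DESeq2 (adjusted p = 0.0652) or with either length trend removed. The values of Rpl5 and Rpl11 are named after they were seen.

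Rpl38 was the 1 member called higher. In mouse embryos it is known for its part in the translation of Hox mRNAs. It had 109, 104 and 94.1 CPM in the Trem2_KO libraries, against 80.8, 96.1 and 86.2 CPM in the WT libraries. The lowest Trem2_KO library lay below the highest WT library, so the groups overlapped. The log2 change was 0.22 (SE 0.06, edgeR adjusted p = 0.00664). The call was lost in the fit without WT replicate 3 and held in the other 5 fits that left out a library.

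**Figure D2:**
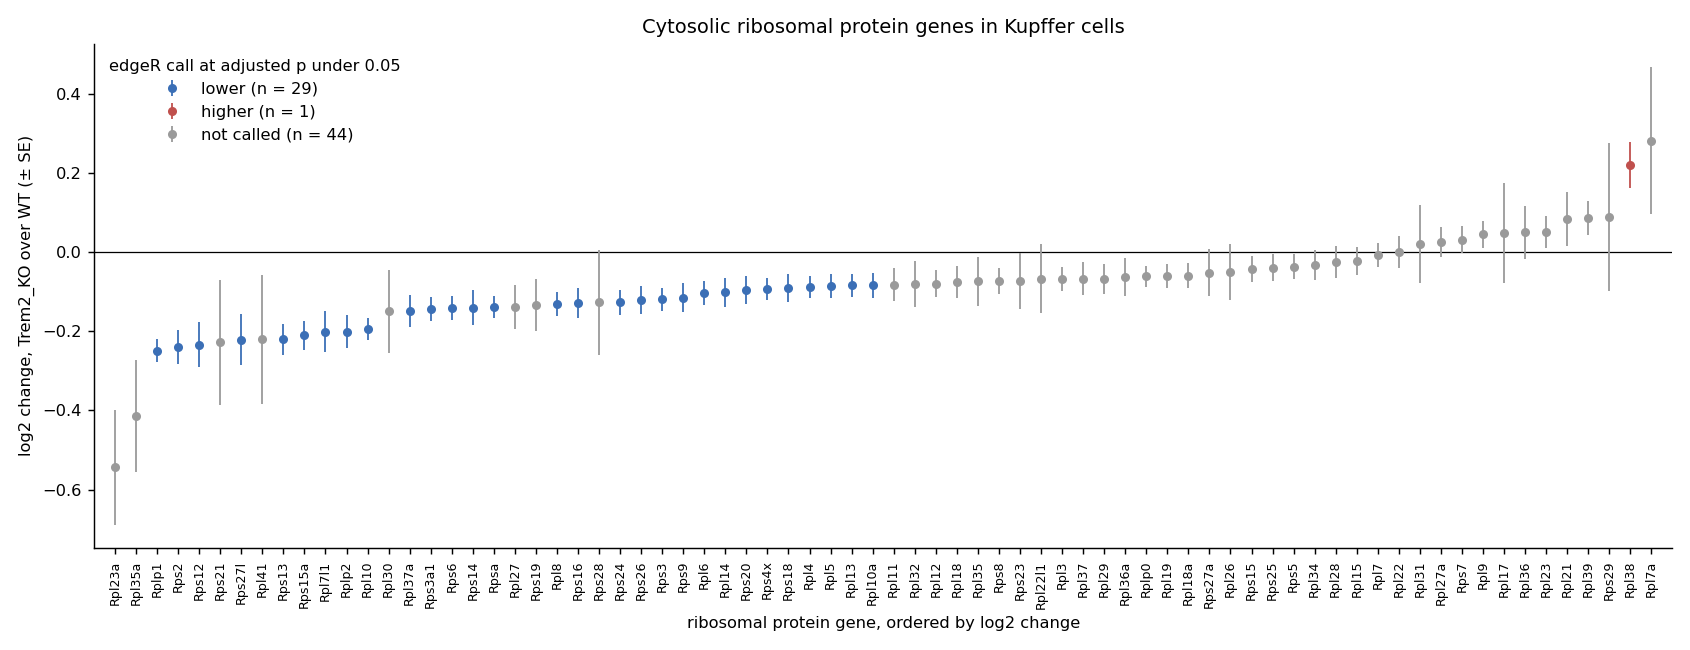
Log2 change (Trem2_KO over WT, ± SE from edgeR) of 74 members with a mean of at least 20 CPM, without Rps27 and Rps27rt, ordered from lowest to highest. Most points lie just under 0, 29 of those plotted are called lower and 1 higher, and the members at both ends (Rpl23a, Rpl35a, Rps29, Rpl7a) have wide error bars.

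The members moved within a narrow band. Of 84 tested members, 42 lay within 0.1 of 0 on the log2 scale and 77 within 0.25. Of the 31 that fell, 26 had groups without overlap, and 5 further members had such groups without passing the test. All 31 members without overlap (36.9%) were lower in Trem2_KO and 0 were higher, beside 20.7% and 20.9% of all tested genes. Of the 31 calls, 18 held in all 6 fits that left out 1 library, 10 were lost without WT replicate 2 and 8 without Trem2_KO replicate 3. DESeq2 called 24 of the 31 lower. Among members of at least 20 CPM the log2 changes furthest below 0 did not pass in edgeR but did in DESeq2: Rpl23a had 63.0, 61.0 and 83.0 CPM in Trem2_KO, against 108, 99.1 and 95.1 CPM in WT (log2 change -0.54, SE 0.14, edgeR adjusted p = 0.0563, DESeq2 adjusted p = 0.0035), and Rpl35a had a log2 change of -0.41 (edgeR adjusted p = 0.106, DESeq2 adjusted p = 0.0203). Both were named after their values were seen.

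Within each genotype many members had their extreme in the same library. Among the 78 members with a mean of at least 20 CPM, 45 were lowest in replicate 3 of the Trem2_KO libraries, and 63 were highest in replicate 2 of the WT libraries. The share of all genes with these orders was not counted. Other genes varied within a genotype too. Across 6427 other protein-coding genes of at least 20 CPM, the difference of WT replicate 2 from the other WT libraries had rho = -0.33 with log2 mRNA length. For Trem2_KO replicate 3 against the other Trem2_KO libraries, rho was 0.13. The median ratio of the highest to the lowest library was 1.09 in Trem2_KO and 1.08 in WT. Some very short members varied more in Trem2_KO: Rps29 had 281, 268 and 186 CPM there, and 215, 243 and 233 CPM in WT. The 26 members with the shortest mRNAs had a median deviation of -0.11 (log2, from the mean of all 6 libraries) in Trem2_KO replicate 3 and 0.09 in WT replicate 2. The 26 with the longest had -0.07 and 0.10 in these libraries.

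Several members are paralogs of other members. Per length, Rpl7l1 averaged 16.4 FPKM in Trem2_KO and 18.9 FPKM in WT, below its partner Rpl7 with 154 FPKM in Trem2_KO and 155 FPKM in WT. In each library Rpl7l1 had 59.1, 58.2 and 55.7 CPM in Trem2_KO, against 64.0, 69.0 and 66.0 CPM in WT (log2 change -0.20, SE 0.05, edgeR adjusted p = 0.00186). Rpl7 itself had 398, 422 and 428 CPM in Trem2_KO and 419.6, 418 and 417 CPM in WT (log2 change -0.0080, adjusted p = 0.871). Rpl22l1 had 24.3, 21.2 and 20.4 CPM in Trem2_KO and 26.4, 20.6 and 22.1 CPM in WT, and Rpl22 averaged 128 ± 4.58 CPM in Trem2_KO and 128 ± 5.30 CPM in WT (SD, n = 3 each). Neither passed the test (edgeR adjusted p = 0.607 and 0.991).

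Paralogs known from testis or muscle had few reads or none. Rpl39l had 4 to 11 reads per library in Trem2_KO and 7 to 13 in WT, while Rpl39 averaged 133 CPM in Trem2_KO and 125 CPM in WT (edgeR adjusted p = 0.249 for Rpl39l and 0.133 for Rpl39). Rpl3l, the striated muscle form of Rpl3, had 3, 5 and 0 reads in Trem2_KO and 3, 0 and 2 in WT, and was not tested. Rpl10l, a retrogene of Rpl10, had 0 reads in all 6 libraries, which allows up to 0.173 to 0.192 CPM per library on counting error alone. Apart from these tissue forms, Rpl36al had 8 to 29 reads per library in Trem2_KO and 11 to 29 in WT. Of the 50-base stretches of its mRNA, 59.5% also occur in the overlapping gene Gm49383, which is listed at 0 reads. Its partner Rpl36a averaged 78.9 CPM in Trem2_KO and 82.4 CPM in WT. Rps4x, the X-linked gene of its protein, had 457, 467 and 468 CPM in Trem2_KO, against 501, 495 and 489 CPM in WT (log2 change -0.09, edgeR adjusted p = 0.00809).

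Rps27 has a retrogene, Rps27rt, and a diverged paralog, Rps27l. Their coding sequences are shown because they bear on how reads were assigned. Rps27 is at chr3:90212522-90213651 on the minus strand, Rps27rt at chr9:114982366-114982739 on the minus strand and Rps27l at chr9:66946086-66949516 on the plus strand (GRCm38, GENCODE vM21). The 255 coding bases of Rps27rt are the same as those of Rps27 at every position. Rps27l differs at 61 positions (76.1% identity), its longest stretch without a difference is 11 bases, and capitals mark its differences from Rps27.
Rps27: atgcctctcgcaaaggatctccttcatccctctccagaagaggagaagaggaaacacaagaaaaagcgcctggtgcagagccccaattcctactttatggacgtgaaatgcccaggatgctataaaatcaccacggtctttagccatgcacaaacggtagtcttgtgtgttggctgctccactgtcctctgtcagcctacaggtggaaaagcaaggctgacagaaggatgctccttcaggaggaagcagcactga
Rps27l: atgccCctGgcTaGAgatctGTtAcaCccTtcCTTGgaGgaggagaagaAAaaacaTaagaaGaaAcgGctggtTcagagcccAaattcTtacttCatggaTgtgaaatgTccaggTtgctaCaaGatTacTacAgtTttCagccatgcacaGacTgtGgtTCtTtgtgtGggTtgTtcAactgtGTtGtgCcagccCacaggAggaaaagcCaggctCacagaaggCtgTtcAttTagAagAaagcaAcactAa

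The reads of the identical pair were divided very unevenly between libraries. Rps27 had 2126, 889 and 1586 reads in the Trem2_KO libraries, against 1962, 1470 and 1836 in the WT libraries. Rps27rt had 302, 1548 and 796 reads in Trem2_KO, against 206, 764 and 428 in WT. Where one was high the other was low, and replicate 2 of each genotype had the most reads on Rps27rt. Summed, the pair had 2428, 2437 and 2382 reads in Trem2_KO, against 2168, 2234 and 2264 in WT, or 143 ± 4.42 CPM in Trem2_KO and 142 ± 3.22 CPM in WT (SD, n = 3 each). The summed pair had a log2 change of 0.0080 (SE 0.038, edgeR adjusted p = 0.902), where Rps27 alone gave -0.31 (SE 0.34, adjusted p = 0.578) and Rps27rt alone gave 0.82 (SE 0.82, adjusted p = 0.544). Rps27l, whose human gene is known as a target of p53, had 32.0, 33.2 and 32.5 CPM in Trem2_KO, against 38.4, 39.8 and 35.8 CPM in WT (log2 change -0.22, SE 0.06, adjusted p = 0.00614).

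**Figure D3:**
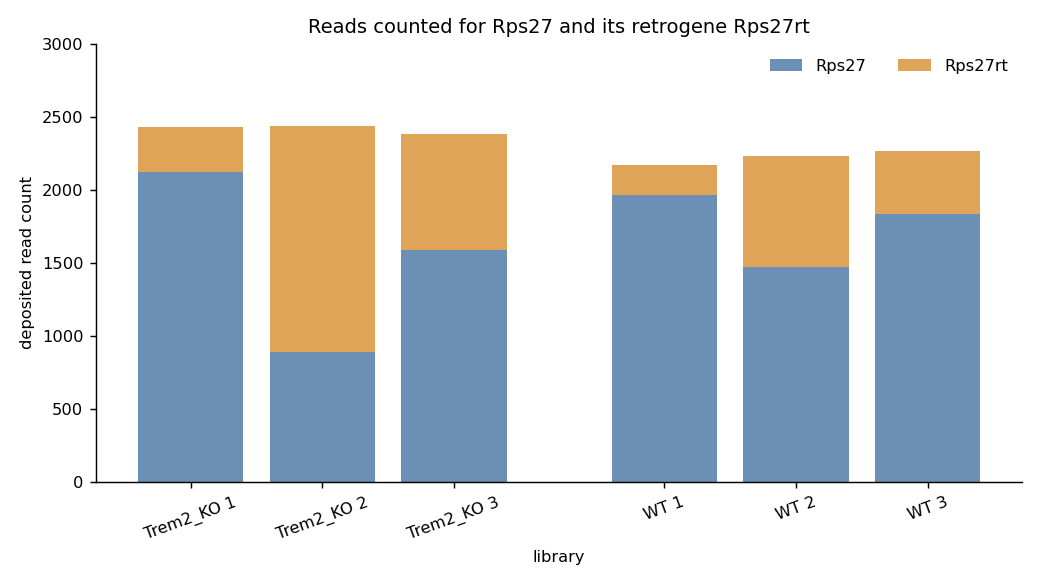
Deposited read counts (y axis) of Rps27 and of its retrogene Rps27rt stacked for each library, Trem2_KO at the left and WT at the right. The stacked height stays between 2168 and 2437 reads, while the Rps27rt portion ranges from 206 to 1548 reads.

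Shared sequence of this kind is common in the family. In GENCODE vM21 a median of 55.0% of a member's 50-base words occur in a transcript of another gene. The share was at least 50% in 50 of 86 members and at least 90% in 7, and 4 members shared none. Reads fell on 157 of 296 genes named as a member's pseudogene, and these reads came to between 3.91% and 4.33% of the members' own in Trem2_KO and between 4.10% and 4.32% in WT. Of 59 such genes tested, 11 (18.6%) were lower and 2 (3.39%) higher, beside 15.1% and 15.3% of all tested genes. In all, 5 had more reads than the member they are named for. Rps10 had 30, 37 and 22 reads in Trem2_KO and 36, 24 and 16 in WT, while Rps10-ps2 had 1128, 1141 and 1295 in Trem2_KO and 1158, 1090 and 1100 in WT. Levels of members with such copies are uncertain, since no source states how reads matching more than 1 gene were handled.

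The 3 steepest changes called among these genes were those of Rps2-ps10, Rps4x-ps and Rpl9-ps6, named after their values were seen. Rps2-ps10 had 38, 18 and 26 reads in Trem2_KO, against 93, 77 and 64 in WT, with a log2 change of -1.62 (SE 0.23, edgeR adjusted p = 8.34e-08). Rps4x-ps had 17, 20 and 15 reads in Trem2_KO, against 6, 7 and 3 in WT, with a log2 change of 1.57 (SE 0.46, adjusted p = 0.00729). Both had far fewer reads than Rps2 and Rps4x. Rpl9-ps6, annotated as protein-coding, had 207, 199 and 261 reads in Trem2_KO, against 418, 448 and 525 in WT, with a log2 change of -1.17 (SE 0.10, edgeR adjusted p = 3.18e-13). Rpl9 itself had 266, 261 and 251 CPM in Trem2_KO and 256, 261 and 237 CPM in WT, with a log2 change of 0.045 (adjusted p = 0.352).

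Some members overlap other annotated genes. Rpl13 lies within the protein-coding Gm20388, which is listed at 0 reads, and had 20978 reads in Trem2_KO and 20559 in WT, summed over libraries. Rpl13a, Rpl24, Rps10 and Rpl36al overlap the read-through genes Gm45713, Gm28037, RPS10-NUDT3 and Gm49383, which are all listed at 0 reads. Rpl24 had 10 to 19 reads per library in Trem2_KO and 10 to 20 in WT, and Rpl13a had 178 to 197 in Trem2_KO and 182 to 198 in WT. Rps19bp1 averaged 10.6 ± 1.22 CPM in Trem2_KO and 12.6 ± 1.28 CPM in WT (SD, n = 3 each, edgeR adjusted p = 0.0994).

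The starts of the members' genes were read for the TOP-like pyrimidine run. In the RefSeq promoter table (GRCm38.p6), 66 of 86 members had an entry, and 36 of them (54.5%) held a run of at least 7 bases, each C or T, on the gene's strand that reached into the window from 10 bases before to 15 bases after the annotated start. Of all 27025 genes listed there, 25.3% held one. Counting only bases inside the window, a rule chosen after seeing the data, 31 members (47.0%) held a run of at least 7, beside 17.5% of all genes listed. Below are 5 members described above that hold a run, from 30 bases before the start to 20 bases of transcript, with the longest run in capitals. They do not stand for all members that fell: the longest run was 6 bases in Rps2 and Rps13, 3 in Rpl10 and 2 in Rps3a1. Rplp2, Rps12, Rps15a and Rps6 fell and Rpl38 rose. Of the marked runs, 10 bases lie inside the window in Rplp2, Rps6 and Rpl38, 7 in Rps12 and 5 in Rps15a. Rps15a also holds a run of 9 bases inside the window, shorter than its marked run and left in lower case, and so meets the stricter rule.
Rplp2: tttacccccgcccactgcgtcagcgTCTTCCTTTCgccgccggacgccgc
Rps12: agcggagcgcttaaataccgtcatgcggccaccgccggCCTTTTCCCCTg
Rps15a: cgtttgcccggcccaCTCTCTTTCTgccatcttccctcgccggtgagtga
Rps6: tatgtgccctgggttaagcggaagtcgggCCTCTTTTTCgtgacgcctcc
Rpl38: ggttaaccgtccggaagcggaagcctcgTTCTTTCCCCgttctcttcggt
These windows are chr7:141447621-141447670 (plus strand), chr10:23787190-23787239 (minus), chr7:118116128-118116177 (minus), chr4:86857348-86857397 (minus) and chr11:114668550-114668599 (plus). Of 36 tested members with a run, 13 fell and 1 rose (median log2 change -0.08), and of 28 without one, 12 fell (median -0.12). By the stricter rule, 11 of 31 with a run fell and 1 rose, and 14 of 33 without one fell (median -0.09 in both). The run is a match of letters at an annotated start and shows no binding.

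The check of length dependence was planned on the deposited gene length, given further below, and mRNA length was chosen after seeing the data. Across 11972 tested protein-coding genes, the log2 change and log2 mRNA length had Pearson's r = 0.19 and Spearman's rho = 0.32, as a description over genes that share libraries. Other protein-coding genes in the shortest decile (138 to 1167 bases) had a median log2 change of -0.16, with 31.6% called lower and 5.94% higher. Those in the longest decile had a median of 0.14, with 42.4% called higher and 5.34% lower. The shortest decile held 71 of the 84 tested members, with a median of -0.08, of which 22 (31.0%) were called lower and 1 higher. Read against the other genes of that length, the share called lower was close and the median was nearer to 0. Among the 84 members themselves the relation was not seen (r = -0.075, rho = 0.034).

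**Figure D4:**
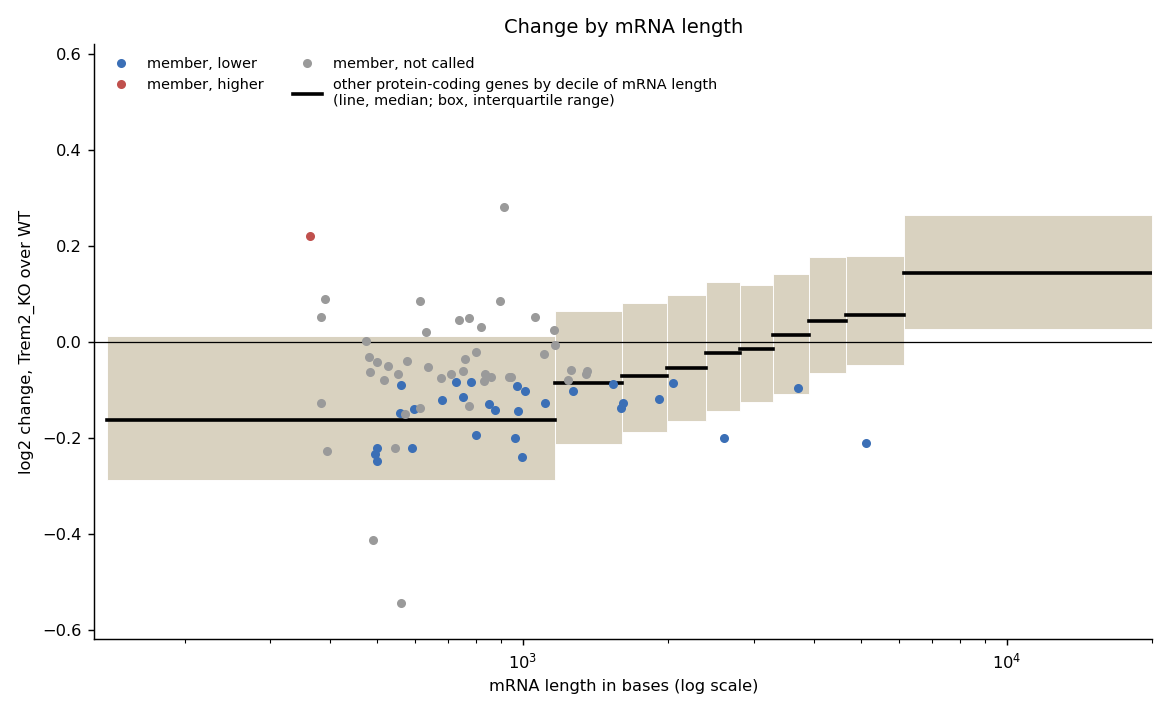
Log2 change (Trem2_KO over WT) against mRNA length on a log scale, for the 74 members of the ranked plot (points) and for other protein-coding genes in deciles of mRNA length (line, median, and box, interquartile range; the last decile runs on to 123179 bases). The medians of other genes climb from -0.16 to 0.14, and most members lie in the first box, above its line.

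The deposited gene length is not mRNA length. It had a median of 1730 bases over the members, against 774.5 bases for their mRNAs, and 4371 against 2806.5 bases over tested protein-coding genes. Across 13776 tested genes, the log2 change and log2 deposited length had Pearson's r = 0.11 and Spearman's rho = 0.22. Other genes in the shortest decile of deposited length had a median log2 change of -0.073, with 18.4% called lower and 6.48% higher. In the longest decile the median was 0.12, with 5.59% lower and 38.1% higher. The shortest decile held 21 tested members (median -0.14), of which 4 were lower and 1 higher. With the trend over the deposited length removed, 12 members (14.3%) were lower and 5 (5.95%) higher, beside 13.3% and 12.8% of all tested genes, and their median was -0.020. Level moved with the members too: 61 of them were in the top decile of tested genes by CPM. There 29 of them (47.5%) fell and 0 rose, while 34.5% of the other genes there were called lower and 28.9% higher.

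**Figure D5:**
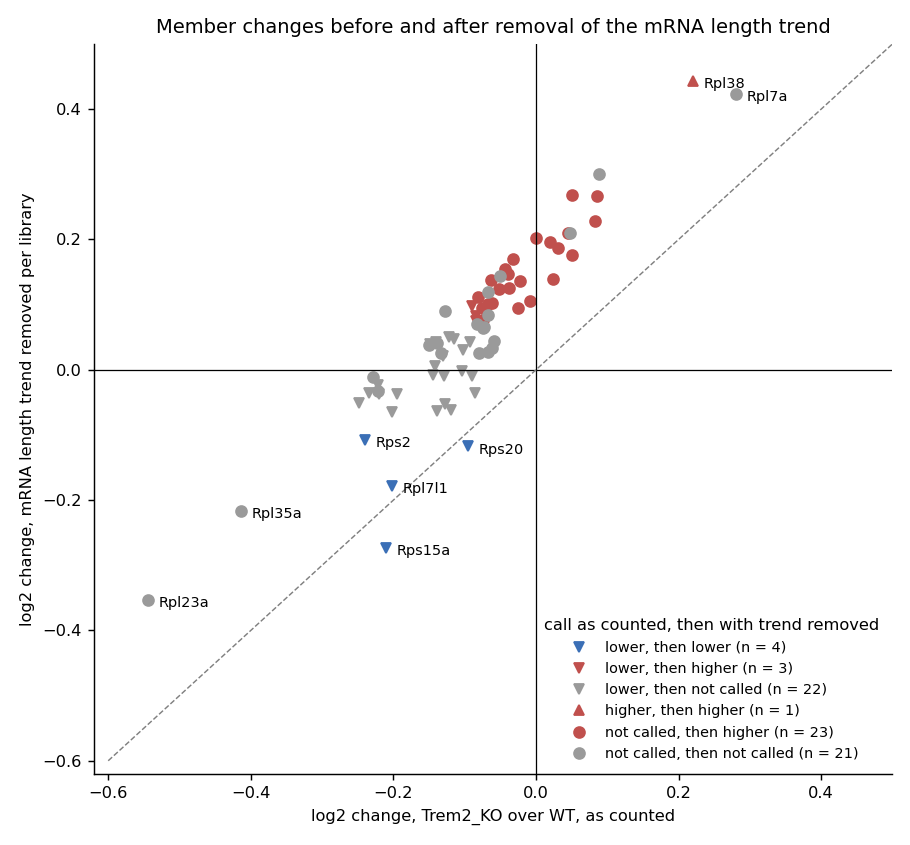
Log2 change (Trem2_KO over WT) of the same 74 members as counted (x axis) and with the mRNA length trend removed in each library (y axis); the marker shape gives the call as counted and the colour the call with the trend removed. Nearly all members lie above the dashed line of equal values, and those below it include Rps15a and Rps20.

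With the mRNA length trend removed, 24 of the 31 members that fell were not called, 3 were called higher and 4 were still lower. Of the members not called before, 23 were then higher. Rpl38 had a log2 change of 0.44 (edgeR adjusted p = 3.44e-13). Rps15 had 0.15 (adjusted p = 4.78e-05), Rpl22 had 0.20 (adjusted p = 2.4e-05) and Rpl39 had 0.27 (adjusted p = 4.65e-08). Rplp1 had -0.051 (adjusted p = 0.129), Rpl10 had -0.037 (adjusted p = 0.304), Rps6 had 0.0062 (adjusted p = 0.904), and Rps3a1, Rpl8 and Rpl37a had -0.0086, 0.021 and 0.039, with none of these passing. The 4 still lower were Rps2 (log2 change -0.11, adjusted p = 0.00497), Rpl7l1 (-0.18, adjusted p = 0.00505), Rps15a (-0.27, adjusted p = 1.65e-09) and Rps20 (-0.12, adjusted p = 0.00424), the last named after its values were seen. The mRNA lengths used for Rpl7l1, Rps15a and Rps20 were 2606, 5130 and 3706 bases, among the longest of all members, while protein-coding transcripts of Rps15a in GENCODE start at 250 bases. Rpl7l1 has shorter ones there too, and Rps20 has 1 protein-coding transcript. For Rpl7l1 and Rps15a the value depends on which transcript the cells use, which was not tested. As counted, the call of Rps20 was lost in 5 of the 6 fits that left out a library.

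Other genes of translation, listed by name rather than by change, are set here beside the 15.1% of all tested genes called lower and 15.3% called higher, and with the mRNA length trend removed beside 12.4% and 13.4%. Of 3 further proteins of the ribosome, 1 was lower: Fau, which carries Rps30, averaged 368 ± 12.9 CPM in Trem2_KO and 393 ± 22.5 CPM in WT (SD, n = 3 each, log2 change -0.10, edgeR adjusted p = 0.0287). The call of Fau was lost without Trem2_KO replicate 1, Trem2_KO replicate 3 or WT replicate 2, and with the mRNA length trend removed Fau was called higher. Of 12 elongation factors and companions with TOP mRNAs, 6 were lower and 1 (8.33%) higher (median -0.12), and 3 were lower and 2 higher with the mRNA length trend removed (median -0.024). Eif5a, which eases peptide bond formation at prolines, averaged 291 ± 4.70 CPM in Trem2_KO and 341 ± 13.4 CPM in WT (log2 change -0.23, adjusted p = 4.85e-08). Of 35 initiation factors, 11 (31.4%) were lower and 1 (2.86%) higher, and 10 and 2 with the mRNA length trend removed. Among them was the helicase Eif4a1 at 412 ± 12.3 CPM in Trem2_KO and 459.9 ± 10.4 CPM in WT (log2 change -0.16, adjusted p = 2.16e-05). Both Eif5a and Eif4a1 were called lower with the mRNA length trend removed as well.

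Of 36 ribosome biogenesis genes, 9 (25%) were lower and 2 (5.56%) higher, with a median log2 change of -0.10. With the mRNA length trend removed, 5 were lower and 2 higher. The nucleolar genes Nop10, Fbl and Ncl had log2 changes of -0.34, -0.24 and -0.15 (edgeR adjusted p = 3.76e-05, 0.000354 and 0.000511), and Taf1d, of the factor that starts transcription of ribosomal RNA genes, had 0.33 (adjusted p = 0.00121). With the mRNA length trend removed Fbl was not called (adjusted p = 0.0521), while Nop10, Ncl and Taf1d kept their calls. Of 17 genes of mTORC1 and its route to TOP mRNAs, 4 (23.5%) were lower and 3 (17.6%) higher (median log2 change -0.0046), and the 3 higher calls were lost with either length trend removed, while 4 were lower. DESeq2 called 1 higher as counted. Rheb, the activator of mTORC1, had a log2 change of -0.20 (edgeR adjusted p = 0.00146) and was lower with either length trend removed as well. Tsc1, of the complex that restrains Rheb, had 0.20 (adjusted p = 0.00904), but its call was lost without Trem2_KO replicate 3 and with the gene length or the mRNA length trend removed (adjusted p = 0.29 and 0.403).

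Set beside the members, 3 other sets of multi-subunit complexes had medians further below 0. Of 77 tested mitochondrial ribosomal proteins, 21 (27.3%) were lower and 0 higher, with a median log2 change of -0.17 and a median mRNA length of 1280 bases. Of 75 nuclear genes of oxidative phosphorylation, 52 (69.3%) were lower and 0 higher, with a median of -0.25 and 732 bases. Of 39 proteasome subunits, 25 (64.1%) were lower and 0 higher, with a median of -0.17 and 1512 bases. With the mRNA length trend removed, these sets had 10, 24 and 11 members lower and 2, 0 and 1 higher, with medians of -0.093, -0.091 and -0.094, where the cytosolic ribosomal proteins had 4 lower, 27 higher and a median of 0.044. At an unadjusted p under 0.05, edgeR had 1, 0 and 0 members of these sets higher, and DESeq2 called 0 in each. The differences between the sets were not tested.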

How the data were processed

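RNA of sorted Kupffer cells was measured in 3 Trem2_KO and 3 WT libraries, grouped by sample title. The deposited read counts are raw whole numbers for each gene, and the deposited FPKM values are scaled by the authors to gene length and library size. Per the submitters' processing notes, the tools were DESeq2 1.16.1, featureCounts 1.5.0-p3 and HISAT2 2.0.5, with builds GRCm38 and mm10. No source states the strand or multi-mapping settings, so reads of overlapping, antisense or near-identical genes cannot be told apart.

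The count test was edgeR 4.0.16 (R 4.3.3): TMM scaling after filterByExpr by group, a robust quasi-likelihood fit on genotype alone, and Benjamini-Hochberg adjustment over all 13776 tested genes and calls at an adjusted p under 0.05. CPM uses TMM-scaled library sizes. A count of 3, the limit that a count of 0 allows, is 0.173 to 0.192 CPM and covers counting error only. The fit was tested on simulated data. Length trends were removed as per-library lowess offsets over log2 length, either the deposited gene length or the length of the principal GENCODE vM21 transcript (GRCm38). Genes without an mRNA length got no mRNA length offset but stay in the shares of all tested genes. The mRNA length was chosen as an alternative after seeing the data. limma 3.58.1, DESeq2 1.42.0 and log2(FPKM + 1) served as alternatives.

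The members and all lists were chosen with earlier results of these data known. Members named in the text were those called higher, the 10 largest falls, the 5 smallest p, the 3 highest and 3 lowest by FPKM, stalk and paralog genes, and 5 whose call changed with the length trend removed. A few genes that these rules pick are not reported here or plotted. Up to 4 per list were named by smallest p. Rpl5, Rpl9, Rpl11, Rpl13, Rpl13a, Rpl23a, Rpl24, Rpl35a, Rps20, Rps29 and the pseudogenes were named after their values were seen. The main fit did not pair libraries by replicate number, and the labels state no pairing. Same-numbered libraries deviated with r between -0.0079 and 0.036, which cannot show whether they were handled as pairs.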

Additional observations from a re-analysis of the deposited data

How the results depend on the processing

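As counted, 31 members were lower and 1 higher, with a median log2 change of -0.088. The lower count was 30 with DESeq2 size factors or upper quartiles, 24 with cyclic loess, 26 with DESeq2's test, 32 with limma-voom, 41 with no filter and 21 with log2(FPKM + 1), log2(FPKM + 0.1) (0 higher in both) or a threshold of 0.01. It moved to 20 lower and 2 higher with total counts, and to 10 and 0 with log2(FPKM + 1) and no filter. Leaving out each library gave 21 to 39 lower, 0 to 5 higher and medians of -0.11 to -0.068. With a coefficient of variation fixed at 0.1 or 0.2, in place of the estimated 0.038, 2 and 0 were lower.

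With the gene length trend removed, 12 were lower and 5 higher (median -0.020), and likewise when the trend came from non-members (12, 5 and -0.021). With the mRNA length trend removed, chosen after seeing the data, 4 were lower and 27 higher (median 0.044, the opposite sign). The replicate block gave 37 lower and 2 higher; after removal of the trend over gene length it gave 14 and 8 (median -0.020), and with the mRNA length trend 5 and 30 (median 0.044). The members' share of counts differed by -0.095 points, and their share of summed FPKM by 0.012 points.

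Named members that turned sign from a call or into one under the mRNA length trend, without and with the replicate block, were Rps15 (0.15 both), Rps6 (0.0062 and 0.0055), Rps27a (0.12 both), Rpl7 (0.11 both), Rpl36a (0.14 both), Rps4x (0.043 both), Rpl8 (0.021 both) and Rpl37a (0.039 and 0.038). Removal of the gene length trend turned Rps4x to 0.0064, to 0.0064 with the trend of non-members and to 0.0063 with the replicate block added. The cause of these changes was not tested. Few reads limit Rpl39l, Rpl36al, Rpl24 and Rps10, each with under 40 per library, so changes of the size seen for them were not detectable at these counts. Rpl36al, Rpl24 and Rps10 overlap read-through genes listed at 0 reads, and the part of read assignment in their low counts was not tested.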
